A study of Mus musculus with 30 samples.

Results

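Sp1 to Sp5, the 5 genes of the specificity protein family described here, were followed through cultured and acutely isolated mouse brain endothelial cells (ECs). They are 5 of the 21847 protein-coding genes in the deposited tables, and their 18 annotated transcripts are among 140198 transcripts quantified. The family was chosen by a readout, the change of Sp1 between acutely isolated and cultured ECs, which had been seen to differ between TPM (the abundance of transcripts after dividing by their length) and counts. All values of Sp1 to Sp5 in that contrast are therefore given as a description, without a test. The libraries of that contrast also serve in the comparisons tested below, which are thus not independent of the choice. Of the 18 transcripts, 6 belong to Sp1, 3 to Sp2, 5 to Sp3, 3 to Sp4 and 1 to Sp5.

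Specificity proteins are zinc finger transcription factors that bind GC-rich boxes and GT boxes in promoters. SP1, SP3 and SP4 bind nearly the same sites through a shared set of zinc fingers and carry glutamine-rich domains that contact the basal transcription machinery, and SP1 and SP3 are found in most cell types. SP1 and SP3 sites are known in the promoters of endothelial genes such as Kdr and Nos3. SP2 differs from the others in its fingers and in its preferred sites, and SP4 is best known from neurons. SP5 belongs to a separate branch of the family, and its gene is a well known target of Wnt and beta-catenin signaling, on which brain ECs depend for their barrier.

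RNA was sequenced from adult male mice. Acutely isolated brain ECs were GFP-positive cells sorted from Tie2-GFP mice, which express GFP from an endothelial promoter, and GFP-negative cells sorted alongside served as the non-endothelial comparison, with 2 libraries of each. WT cultures gave 6 libraries after 8 days in culture with puromycin selection. Replicates 1 and 2 came from C57BL/6J mice by isolation method A, and replicates 3 to 6 came from Ctnnb1flex3/+;Tie2-GFP mice by method B. Beta-catenin stabilized cultures gave 4 libraries from Ctnnb1flex3/+;Pdgfb-CreER;Tie2-GFP mice, in which an endothelial CreER deletes the third exon of 1 Ctnnb1 allele after 4-hydroxytamoxifen (4HT), replicates 1 and 2 by method A and replicates 3 and 4 by method B. The Ctnnb1flex3/+;Tie2-GFP controls also received 4HT, at the same dose and age as the stabilized mice, and carry the unrecombined allele. Whether the C57BL/6J mice received 4HT is not clear from the study's wording. ATAC-seq libraries of open chromatin came from Tie2-GFP acutely isolated ECs (2), WT cultures (6) and stabilized cultures (2) of the same genotypes. Of these, WT replicates 1 and 2 were C57BL/6J by method A. WT replicates 3 to 6 and both stabilized ATAC libraries were by method B. Each isolation pooled brains of several mice, and replicates of a culture are wells, 2 from each experiment, so the spread between them covers wells and experiments and not single animals.

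The read type differed between the groups. The 4 libraries of sorted cells were read from 1 end for 75 cycles, and all 10 culture libraries were read as pairs, for 36 cycles except WT replicates 3 and 4, which were prepared at another facility and read for 150 cycles. Culture and read type thus cannot be told apart in any comparison of cultures with acutely isolated ECs. Total estimated counts ran from 24284843 to 94686456 per library. The summed TPM of 6 endothelial markers (Pecam1, Cdh5, Tie1, Erg, Cldn5 and Emcn) was 1476 to 1575 in acutely isolated ECs, 1635 to 4124 in WT cultures and 1827 to 5507 in stabilized cultures, against 5.22 to 14.1 in GFP-negative cells. These markers did not move together. From acutely isolated ECs to WT cultures, mean TPM was lower for Cldn5 (733 and 454) and Erg (123 and 59.4). It was higher for Emcn (139 and 1397), Pecam1 (362 and 520), Cdh5 (144 and 225) and Tie1 (23.9 and 126). Transcripts of 4 pericyte markers (Pdgfrb, Rgs5, Kcnj8 and Abcc9) were present in acutely isolated ECs at a summed 244 to 354 TPM and in cultures at 2.25 to 12.4 TPM, and erythrocyte transcripts at 4751 to 31511 TPM in acutely isolated ECs and at up to 1.39 TPM in cultures. In bulk RNA, fewer cells of a type and less RNA per cell cannot be told apart.

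Sp1 (ENSMUSG00000001280.13) lies on the plus strand at chr15:102406143-102436404 (GRCm38), and its 6 GENCODE transcripts differ at both their 5′ and their 3′ ends. Sp1-201, the reference coding transcript, has 6 exons and 7754 bases, of which 5680 are in the last exon. Sp1-202 starts 47 bases farther upstream and has shorter later exons, for 3134 bases in all. Sp1-203 (652 bases), Sp1-204 (515 bases), Sp1-205 (328 bases) and Sp1-206 (222 bases) begin at other positions and are annotated with a start codon and no stop codon, so they are incomplete models of a message. They also end early, between chr15:102408235 and chr15:102408617. Of the 222 bases of Sp1-206, 181 (81.5%) are also exonic in Sp1-201, and only the 41 bases of its first exon, at chr15:102406143-102406183, occur in no other Sp1 transcript.

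The junctions of the first exon with the next one are shown because they separate Sp1-206 and Sp1-203 from the full-length transcripts, Sp1-201 and Sp1-202, which share theirs and differ elsewhere. In each, the last 15 bases of the first exon are in capitals and the first 15 bases of the second exon are in lower case, read 5′ to 3′ from the GRCm38 genome at the GENCODE exon ends.
Sp1-201 and Sp1-202: CTGCCACCATGAGCGaccaagatcactcca
Sp1-203: CTCCCCCGCACCCCCaccaagatcactcca
Sp1-206: GAGTCCTACCATTGGaccaagatcactcca
The second exon is the same in all of them. Sp1-206 ends 20 bases into its last exon, where Sp1-201 continues, so a read that runs past this end can come from Sp1-201 and not from Sp1-206. A read that lies wholly within the 181 shared bases cannot tell Sp1-206 from Sp1-201. Salmon divides reads that several transcripts share by a statistical model, and the error of this division was not analysed here.

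**Figure D1:**
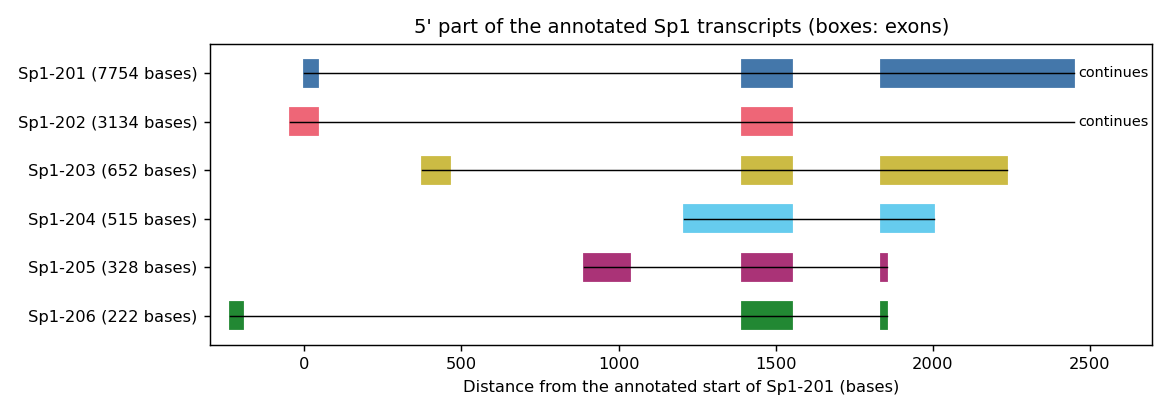
The 5′ part of the 6 annotated Sp1 transcripts, with exons as boxes and introns as lines, against the distance in bases from the start of Sp1-201. Sp1-206 begins upstream of Sp1-201 with a first exon of 41 bases and shares its other 181 bases with Sp1-201, while Sp1-201 and Sp1-202 continue to the right of the plotted range.

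Sp1 counts were lower in cultures than in acutely isolated ECs, and Sp1 TPM fell by far more. Scaled to library size by the trimmed mean of M values (TMM), Sp1 stood at 342 and 259 CPM (counts scaled to a common library size) in the 2 acutely isolated EC libraries and at 111 and 111 CPM in GFP-negative cells. WT cultures held 69.5, 79.8, 19.8, 18.3, 111 and 94.7 CPM in replicates 1 to 6, and stabilized cultures held 93.6, 103, 91.6 and 91.7 CPM. Every culture library lay below both acutely isolated EC libraries, and WT replicates 3 and 4, the 150-cycle libraries, were the lowest of all. On the TPM scale Sp1 was at 258 and 657 in acutely isolated ECs and at 153 and 410 in GFP-negative cells. The WT cultures had a lowest value of 3.44, a median of 8.30 and a highest value of 11.5 TPM, and the stabilized cultures had 17.6, 20.8, 9.44 and 8.88 TPM. No culture library came near any of the 4 libraries of sorted cells in TPM.

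In group means, WT cultures differed from acutely isolated ECs by a log2 change of -2.20 in Sp1 CPM and of -5.91 in Sp1 TPM, a gap of -3.71 between the scales. Stabilized cultures, set against the same acutely isolated libraries, stood at -1.66 in CPM and -5.01 in TPM. A gene's TPM adds up its transcripts after each count is divided by an effective length. This length starts from the number of positions from which a fragment of that transcript could have come. The study's Salmon run also corrected for sequence, GC and position biases, so an effective length can exceed the length of the transcript. Most of the count change lay on the longest Sp1 transcript and most of the TPM change on the shortest one, as the values of each transcript show.

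Sp1-201 held most Sp1 counts in every library. It had 13933 and 10781 counts in acutely isolated ECs (68.1% and 91.6% of Sp1 counts), 94.8% and 84.8% in GFP-negative cells, 98.7% to 100% in the 6 WT cultures and 97.9% to 99.6% in the 4 stabilized cultures. Its TPM was 10.3 and 17.4 in acutely isolated ECs, 5.70 and 7.52 in GFP-negative cells, 6.39, 9.96, 3.88, 3.44, 11.2 and 9.76 in WT cultures, and 16.7, 20.3, 9.01 and 8.40 in stabilized cultures. The Sp1-201 TPM of cultures and acutely isolated ECs thus overlapped. The log2 change of its mean from acutely isolated ECs to WT cultures was -1.86 in CPM and -0.90 in TPM, and to stabilized cultures it was -1.33 in CPM and -0.02 in TPM.

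Sp1-206 held few counts but nearly all of the TPM. It was assigned 564 and 963 counts in acutely isolated ECs and 332 and 559 in GFP-negative cells, from 2.75% to 9.79% of the Sp1 counts of a library. In TPM the same transcript stood at 188 and 640 in acutely isolated ECs and at 147 and 393 in GFP-negative cells, which was 73.1%, 97.3%, 96.2% and 95.7% of all Sp1 TPM in these 4 libraries. In each of the 10 culture libraries Sp1-206 was listed at 0 counts. Its counts thus separated the 4 single-read libraries of sorted cells from the 10 paired libraries of cultures without exception. Culture and read type cannot be told apart in this.

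That share followed from the conversion of counts to TPM. The effective length of Sp1-206 was 13 bases in all 4 single-read libraries and 69 to 98 bases in the paired libraries, while that of Sp1-201 was 5360 to 6239 bases and 6981 to 8715 bases. In acutely isolated ECs 1000 counts of Sp1-206 were therefore worth 334 and 664 TPM, and 1000 counts of Sp1-201 were worth 0.738 and 1.61 TPM. The short length was not particular to Sp1: all 26 transcripts of 222 bases had an effective length of 13 bases in each single-read library. The 1360 transcripts of 200 to 250 bases had a median of 14 bases there, and 74 to 102 bases in the paired libraries that were read for 36 or 150 cycles.

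Acutely isolated EC replicate 1 also held counts on other transcripts. Sp1-203 had 3048 counts and 53.0 TPM there (14.9% of Sp1 counts), and Sp1-202 had 2914 counts and 6.06 TPM (14.2% of Sp1 counts). In replicate 2 Sp1-203 was at 0 counts and Sp1-202 at 22 counts. The 2 acutely isolated libraries were thus close in Sp1-201 (233 and 237 CPM) and differed in how the rest of the Sp1 counts was divided.

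**Figure D2:**
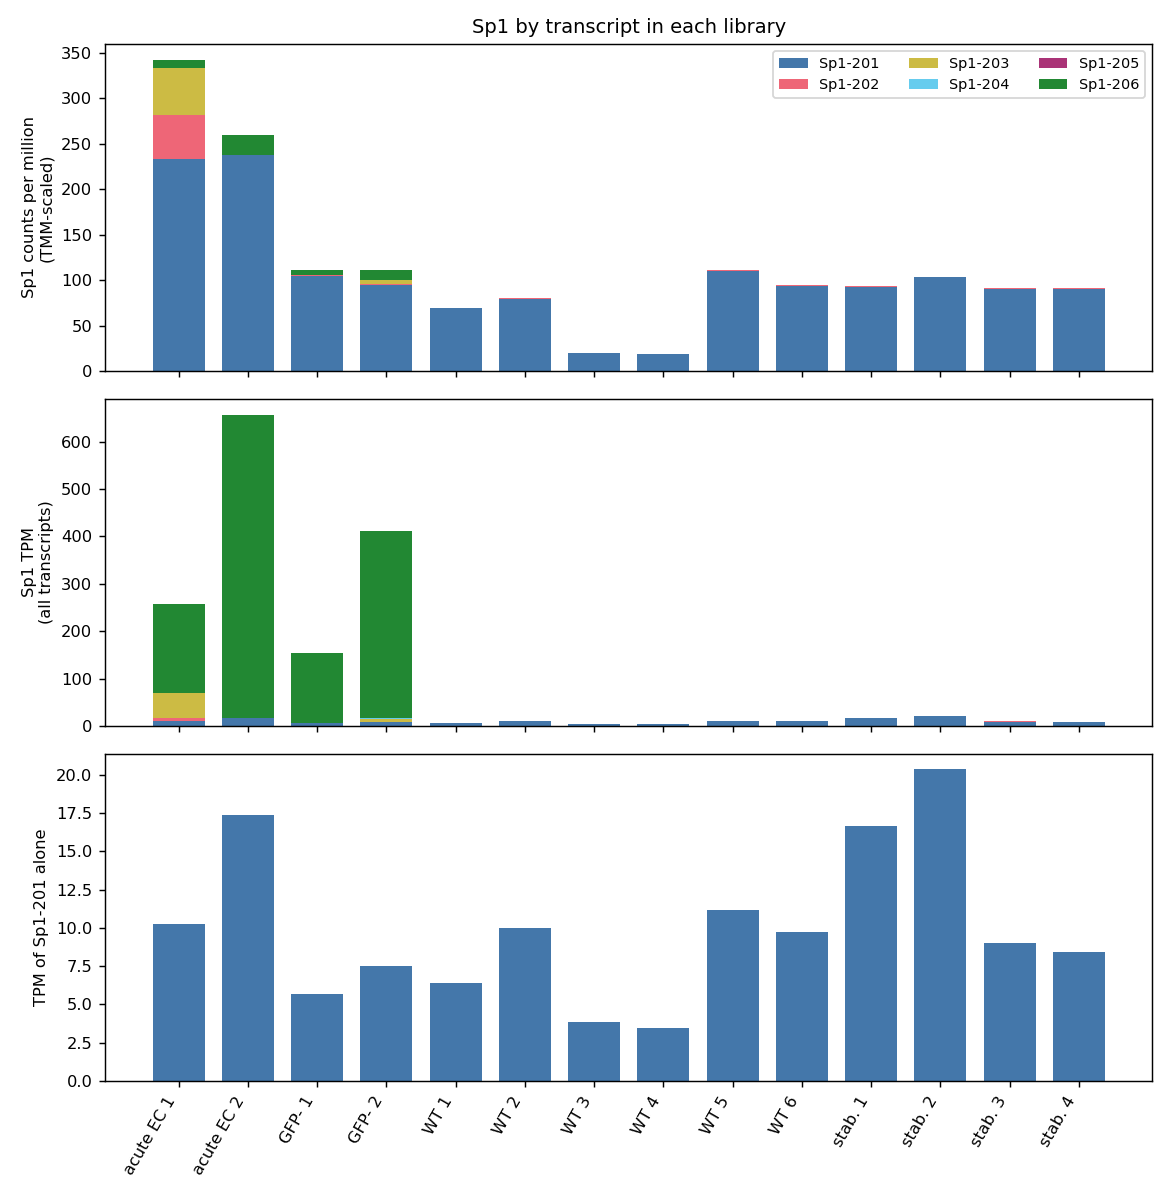
Sp1 in each of the 14 RNA libraries, stacked by transcript, in TMM-scaled CPM (top) and in TPM (middle), with the TPM of Sp1-201 alone below on its own axis; stab. marks beta-catenin stabilized cultures. Sp1-201 fills the count bars, Sp1-206 fills the TPM bars of the 4 single-read libraries and is 0 in all 10 cultures, and Sp1-201 alone lies between 3.44 and 20.3 TPM everywhere.

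Leaving transcripts out showed which of them moved each scale. Without Sp1-206, the only Sp1 transcript under 300 bases, the change from acutely isolated ECs to WT cultures was -2.12 in log2 CPM and -2.52 in log2 TPM, and the gap shrank from -3.71 to -0.39. The sign of this remainder depended on the library. Without Sp1-206 the gap was -0.85 against acutely isolated replicate 1 alone, which held Sp1-203, and 0.66 against replicate 2 alone. Without Sp1-201 the change was -7.01 in CPM and -11.42 in TPM. The effective length of Sp1, weighted by TPM over its transcripts, was 217 bases in acutely isolated ECs and 7655 bases in WT cultures. Acutely isolated counts combined with the per-transcript lengths of WT cultures gave 1065 bases, and WT counts combined with the lengths of the acutely isolated libraries gave 5534 bases, so both the mix of transcripts and their lengths entered, and the mix moved the value more. With acutely isolated replicate 1 left out the gap was -4.45, and with replicate 2 left out it was -2.70.

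For scale, over 11017 protein-coding genes with counts in every library of both groups and a mean of at least 1 TPM in a group, the TPM change exceeded the CPM change by a median of 0.64 on the log2 scale, with a 5th percentile of -0.92 and a 95th of 1.77. Since Sp1 was chosen by this gap, nothing is read from its place in that range. Of 918 genes with a transcript under 300 bases, 247 in acutely isolated ECs and 284 in GFP-negative cells had over 50% of their TPM but under 50% of their counts in such transcripts, against 3 in WT and 4 in stabilized cultures.

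The genes whose TPM followed Sp1 most closely carried the same division of the libraries. By Pearson correlation of log2(TPM + 1) over the 14 libraries, among 11958 protein-coding genes, these were Pitpnc1 (r = 0.992), Chd2 (0.987), Rgs5 (0.983), Mical3 (0.979) and Arap2 (0.977). Chd2, a chromatin remodeler, had a mean of 83.1 TPM in acutely isolated ECs, 59.2 in GFP-negative cells and 7.27 in WT cultures. Rgs5, a pericyte gene and one of the pericyte markers above, had means of 266, 293 and 0.528 TPM in the same order. The 14 points share the split between 4 single-read libraries of sorted cells and 10 paired libraries of cultures, so the coefficients describe that split.

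Sp3 (chr2:72936427-72980446, minus strand), which binds the same GC boxes as SP1 and can activate or repress, was at similar counts in cultures and acutely isolated ECs. Its CPM was 116 and 120 in acutely isolated ECs, 68.4 to 226 with a median of 136 in WT cultures, and 183, 175, 126 and 127 in stabilized cultures, and the groups overlapped. GFP-negative cells were lower, at 52.7 and 43.5 CPM. In TPM it was at 11.9 and 45.8 in acutely isolated ECs, 29.9 to 64.5 in WT cultures and 28.9 to 77.3 in stabilized cultures. The log2 change from acutely isolated ECs was 0.28 in CPM and 0.51 in TPM for WT cultures and 0.37 and 0.86 for stabilized cultures.

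The Sp3 transcripts changed places more than the gene did. Sp3-204, an annotated processed transcript of 3870 bases without a coding sequence, held 58.8% and 39.7% of Sp3 counts in acutely isolated ECs and 63.9% to 78.3% in WT cultures. Sp3-201, a coding transcript of 3808 bases, held 40.8% and 41.3% in acutely isolated ECs and at most 6.26% in WT cultures and 12.3% in stabilized cultures. Sp3-202, the longer coding transcript of 4181 bases, held 0% and 3.16% in acutely isolated ECs, 19.4% to 29.4% in WT cultures and 25.9% to 30.5% in stabilized cultures. The cultures and acutely isolated ECs did not overlap for either coding transcript. A further short model, Sp3-205 (655 bases, effective length 250 bases), held 29.9 of the 45.8 Sp3 TPM in acutely isolated replicate 2. Sp3 shares its locus with Sp3os on the opposite strand and with Gm11084 on the same strand, so that some reads may belong to them.

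Sp4 (chr12:118234933-118301440, minus strand), the member known from neurons, was lower in cultures by counts. Its CPM was 45.4 and 44.2 in acutely isolated ECs and 33.8 and 36.4 in GFP-negative cells. WT cultures held 4.79 to 22.4 CPM with a median of 19.2, and stabilized cultures 15.8 to 16.5. All cultures lay below all sorted cells, and the 150-cycle WT libraries were again the lowest. In TPM, acutely isolated ECs were at 6.49 and 9.29, above WT cultures at 1.49 to 4.94 and stabilized cultures at 2.73 to 5.35, while GFP-negative cells at 3.90 and 5.36 overlapped the cultures. The log2 change from acutely isolated ECs was -1.55 in CPM and -1.22 in TPM for WT cultures and -1.48 and -0.94 for stabilized cultures.

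Among the Sp4 transcripts, Sp4-203 (2677 bases) held 56% and 52.1% of the counts in acutely isolated ECs, 5.06% to 21.5% in WT cultures and 5.83% to 23.3% in stabilized cultures. The longer Sp4-201 (5694 bases), which differs from it mainly in the length of the last exon, held most of the rest. The change from acutely isolated ECs to WT cultures was -3.59 in log2 CPM and -3.28 in log2 TPM for Sp4-203. For Sp4-201 it was -0.63 in CPM and 0.68 in TPM, so that the scales differed in sign.

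Sp2 (chr11:96953341-96982959, minus strand) had the lowest counts of Sp1 to Sp4 in sorted cells and varied widely between culture experiments. Its counts were 1547 and 1493 in acutely isolated ECs and 870 and 1022 in GFP-negative cells. WT cultures held 13, 38, 675, 516, 240 and 242 counts, and stabilized cultures 158, 158, 181 and 159. In TPM the WT cultures ran from 0.154 and 0.342 in the method A wells to 14.1 and 9.97 in the 150-cycle wells, on both sides of the acutely isolated ECs at 2.76 and 5.96 TPM. The group mean of WT cultures therefore differed from acutely isolated ECs by -1.88 in log2 CPM and by 0.05 in log2 TPM, while the stabilized cultures differed by -3.14 and -2.14.

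The Sp2 counts passed between a pair of transcripts with different first exons, Sp2-202 (2907 bases) and Sp2-203 (3055 bases). Sp2-202 held 76.5% and 100% of Sp2 counts in acutely isolated ECs, and Sp2-203 held all of them in WT replicates 2, 5 and 6 and in all 4 stabilized cultures. WT replicate 1 had all of its 13 counts on Sp2-202, and in the 150-cycle WT replicates 3 and 4 Sp2-203 held 45.6% and 50.1%. In GFP-negative cells the share of Sp2-203 was 45.4% and 100%, so that replicates of 1 group differed as much as groups did. Sp2 also overlaps the noncoding D030028A08Rik on the opposite strand.

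**Figure D3:**
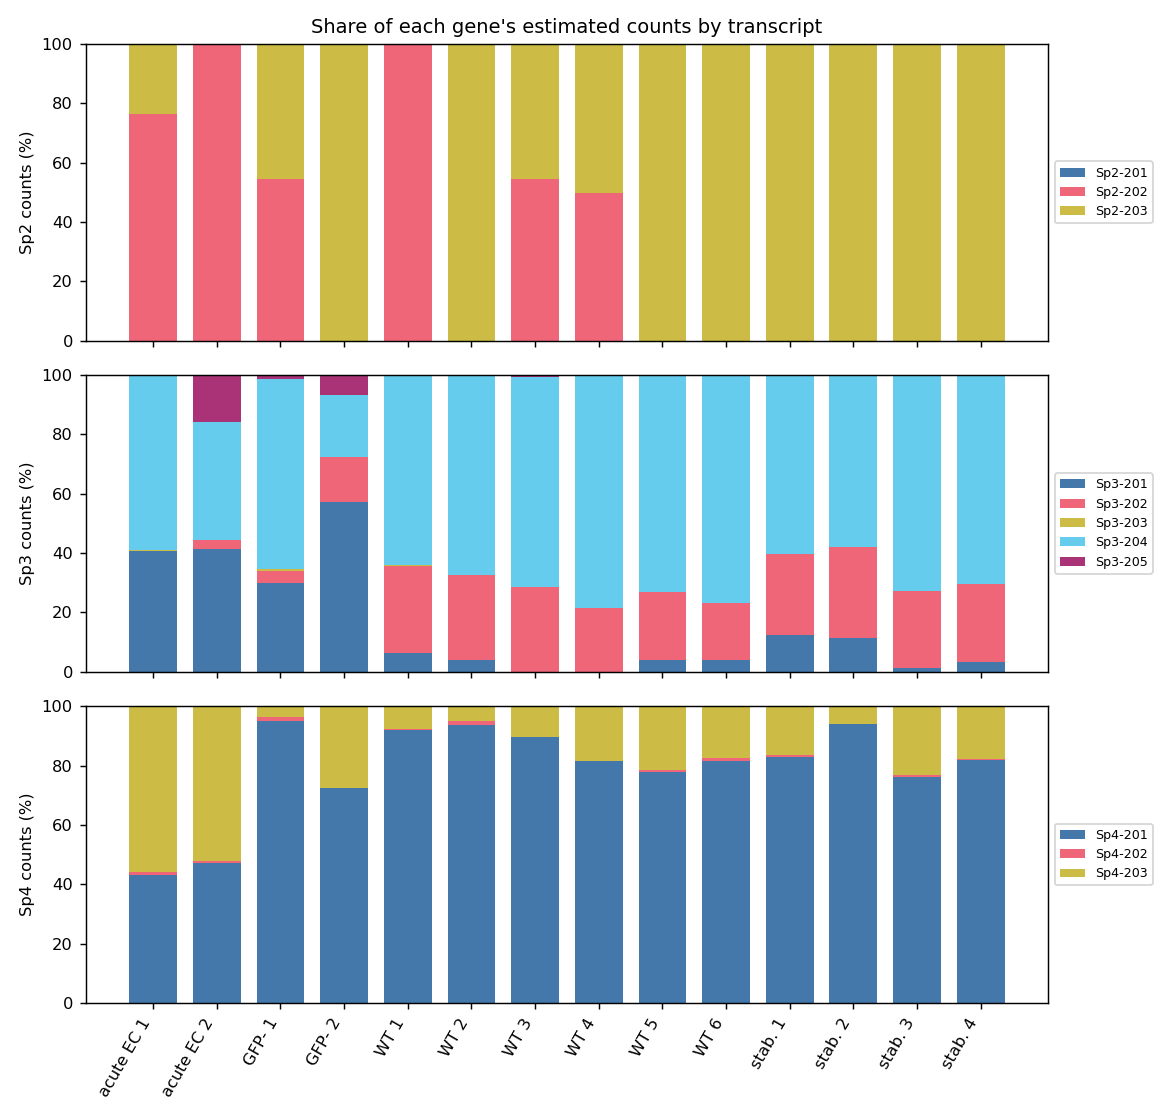
Percent of the estimated counts of Sp2, Sp3 and Sp4 assigned to each transcript in the 14 RNA libraries (stab., stabilized cultures). Sp2-202 and Sp2-203 alternate between libraries, Sp3-202 exceeds Sp3-201 in all 10 cultures and in neither library of acutely isolated ECs, and Sp4-203 is at 56% and 52.1% in the acutely isolated ECs and at most 27.5% elsewhere.

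Sp5 (chr2:70474923-70477729, plus strand), the Wnt target of the family, was nearly absent from sorted cells and present in every culture. It has 1 transcript of 2 exons and 2100 bases, so no division of reads between transcripts enters. Acutely isolated ECs had 24 and 15 counts and GFP-negative cells 49 and 45 counts. WT cultures held 289, 424, 572, 488, 1166 and 2057 counts, and stabilized cultures 910, 746, 1831 and 1397. Scaled, these were 0.402 and 0.330 CPM in acutely isolated ECs, 13.9 to 39.5 CPM in WT cultures and 15.4 to 38.7 CPM in stabilized cultures, with no overlap. The log2 change from acutely isolated ECs was 5.93 in CPM and 7.94 in TPM for WT cultures and 6.10 and 7.44 for stabilized cultures, so the scales had the same sign.

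Within the 36-cycle cultures Sp5 was higher in CPM in method B wells than in method A wells. Method A wells had 15.5 and 13.9 CPM (WT) and 17.5 and 15.4 CPM (stabilized), and method B wells read for 36 cycles had 34 and 39.5 CPM (WT) and 38.7 and 28.5 CPM (stabilized). The 150-cycle WT wells, also of method B, had 16.6 and 14 CPM but the highest TPM, 35.4 and 28, with an effective length of Sp5 of 801 and 810 bases against 1414 to 1775 bases in the other cultures. The genes closest to Sp5 in log2(TPM + 1) over the 14 libraries were Tmem202 (r = 0.997), Fam110c (0.991), Pkp2 (0.990), Slc16a3 (0.988) and Slc19a2 (0.988), which were likewise near 0 in sorted cells, at means of 0 to 1.13 TPM, and at 3.60 to 80.7 TPM in cultures. These coefficients again rest on the split between sorted and cultured libraries.

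**Figure D4:**
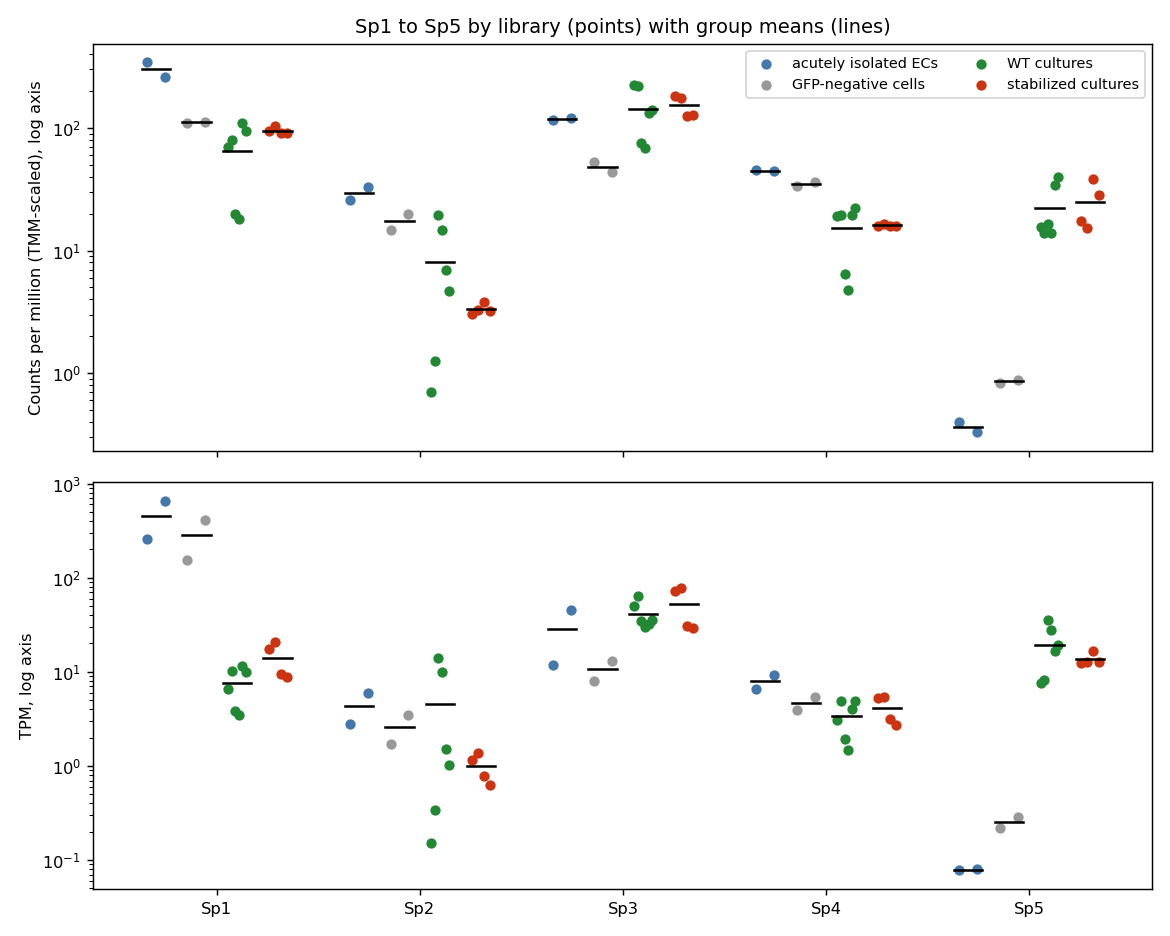
Sp1 to Sp5 in every RNA library (points) with group means (lines), in TMM-scaled CPM (top) and TPM (bottom), both on log axes. Sp1 separates sorted cells from cultures far more in TPM than in counts, Sp3 overlaps between cultures and acutely isolated ECs and is lowest in GFP-negative cells in CPM, and Sp5 is at 0.330 to 0.875 in all sorted cells and at 13.9 to 39.5 in all cultures on the count scale.

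The order of the family depended on Sp1-206. With all transcripts, Sp1 made up 91.5% to 94.8% of the summed TPM of Sp1 to Sp5 in the 4 libraries of sorted cells and 4.32% to 17.7% in the cultures, where Sp3 made up 38.4% to 74.1% and Sp5 9.29% to 39.4%. Without Sp1-206, Sp1 had 69.3 and 17.5 TPM in acutely isolated ECs and was above Sp3 in 1 of 2 libraries, so these members could not be ordered. Both lay above Sp4 (7.89 ± 1.98 TPM, SD, n = 2), Sp2 (4.36 ± 2.26) and Sp5 (0.0785 ± 0.0013). In WT cultures the order of mean TPM was Sp3 (41.1 ± 13.4, SD, n = 6), Sp5 (19.2 ± 11.0), Sp1 (7.59 ± 3.46), Sp2 (4.52 ± 6.00) and Sp4 (3.38 ± 1.48), and each overlapped the next. In stabilized cultures Sp3 (52.4 ± 26.3, SD, n = 4) lay above Sp1 (14.2 ± 5.96) and Sp5 (13.6 ± 1.95), which overlapped, followed by Sp4 (4.13 ± 1.39) and Sp2 (0.987 ± 0.339) without overlap. The remaining members of the family, Sp6 to Sp9, were at a mean of at most 0.561 TPM in acutely isolated ECs, and Sp7 and Sp8 were lower there than in GFP-negative cells (log2 changes of -6.05 and -6.44, adjusted p = 0.0138 and 0.0286 by edgeR's quasi-likelihood test) without reaching the 5 TPM that a call required. Sp9 was listed at 0 TPM in both libraries of acutely isolated ECs and at a mean of 0.0829 TPM in GFP-negative cells.

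Whether the genes are enriched in ECs was tested by comparing GFP-positive with GFP-negative cells, 2 libraries each, all read in the same way. The GFP-positive libraries are the acutely isolated ECs whose Sp1 values entered the choice of the family, so the p-value of Sp1 is not independent of it. Sp1 and Sp3 were higher in ECs. Sp1 rose by 1.46 on the log2 scale (SE 0.32) with an adjusted p of 0.0197, and Sp3 by 1.31 (SE 0.34) with an adjusted p of 0.0330, by the quasi-likelihood test of edgeR, with p-values adjusted after Benjamini and Hochberg over 15116 genes. Sp2 (0.78, SE 0.49, adjusted p = 0.291), Sp4 (0.37, SE 0.40, adjusted p = 0.529) and Sp5 (-1.20, SE 1.03, adjusted p = 0.436) did not pass. Called genes, with an adjusted p under 0.05, a change over 2-fold and at least 5 TPM in each library of the higher group, made up 15.8% of all genes tested, 8.28% higher and 7.55% lower in ECs, against 2 of the 5 members. An adjusted p under 0.05 alone was reached by 29.6% of genes, 9.9% higher and 19.7% lower. The split of the calls moved with the scaling: 52.3% of them were higher in ECs as scaled here, 39.6% under library size alone and 42.1% with the length offset.

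Both calls were kept by DESeq2 (adjusted p = 0.00305 for Sp1 and 0.00616 for Sp3) and were lost under some other settings. Under library size alone Sp1 was at 1.05 (adjusted p = 0.0331 by edgeR) and Sp3 at 0.94 (adjusted p = 0.105). With each transcript's effective length as an offset, Sp1 was at 0.87 (SE 0.53, adjusted p = 0.308) and Sp3 at 1.5 (SE 0.61, adjusted p = 0.14). With 1 library left out, Sp1 kept its call only without acutely isolated replicate 2 (adjusted p = 0.0191) and lost it without acutely isolated replicate 1 (0.0704) and without either GFP-negative library (0.104 at most), and Sp3 lost it in all 4 (0.0663 to 0.227). Among transcripts, Sp1-201 was higher by 1.02 (SE 0.33, unadjusted p = 0.0387, adjusted p = 0.207 by edgeR) and Sp1-206 by 0.65 (SE 0.91, adjusted p = 0.875). None of 42777 transcripts was called, 8788 had an unadjusted p under 0.05, and the background share was 0%.

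The effect of stabilized beta-catenin in culture was tested by comparing 4 stabilized with 6 WT cultures. None of Sp1 to Sp5 was called, nor was any of the 12971 genes tested (0%), although 1422 had an unadjusted p under 0.05 by edgeR and DESeq2 called 18. The log2 changes were 0.51 (SE 0.46, adjusted p = 0.682) for Sp1, -1.32 (SE 0.80, adjusted p = 0.550) for Sp2, 0.05 (SE 0.35, adjusted p = 0.962) for Sp3, 0.04 (SE 0.40, adjusted p = 0.976) for Sp4 and 0.13 (SE 0.38, adjusted p = 0.904) for Sp5. Axin2, the most used readout of Wnt signaling, was at 1.43 ± 0.49 TPM (SD, n = 4) against 0.171 ± 0.069 (SD, n = 6), a log2 change of 3.29 (SE 0.54, adjusted p = 0.210), and at 49.4 ± 3.4 TPM (SD, n = 2) in acutely isolated ECs. For the Wnt target Sp5 a difference was not detectable beside it, with an SE of 0.38. With the replicate number as a block, only replicates 1 to 4 were used, and WT replicates 5 and 6 were left out. Numbers 3 and 4 then set 150-cycle WT wells against 36-cycle stabilized wells. In that fit 190 genes were called by edgeR and none of the members was. Sp1 was at 1.31 (SE 0.46, adjusted p = 0.136 by edgeR), Sp5 at 0.62 (SE 0.25, adjusted p = 0.168) and Sp4 at 0.60 (SE 0.44, adjusted p = 0.392).

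Within an isolation method the wells agreed more closely, and 3 members moved in different directions or by different amounts. In method A (2 against 2 wells of 1 experiment each) Sp1 was at 0.36 (SE 0.09, adjusted p = 0.0177 by edgeR), Sp2 at 1.60 (SE 0.29, adjusted p = 0.00422), Sp3 at -0.35 (SE 0.07, adjusted p = 0.00712), Sp4 at -0.28 (SE 0.09, adjusted p = 0.0333) and Sp5 at 0.12 (SE 0.11, adjusted p = 0.373). In method B at 36 cycles Sp1 was at -0.17 (SE 0.09, adjusted p = 0.190), Sp2 at -0.71 (SE 0.23, adjusted p = 0.0535), Sp3 at -0.11 (SE 0.05, adjusted p = 0.143), Sp4 at -0.41 (SE 0.08, adjusted p = 0.0140) and Sp5 at -0.14 (SE 0.15, adjusted p = 0.493). Of the 5 members, only Sp4 had an adjusted p under 0.05 with the same sign in both, by less than 2-fold. The same threshold was passed by 56% of all genes in method A, against 4 of the 5 members, and by 37% in method B, against 1 of 5. The WT wells of method A also differed from the stabilized wells in strain, and genotype, strain and experiment cannot be told apart there. In method B each genotype was also 2 wells of 1 experiment, so genotype and experiment cannot be told apart. The p-values of both fits rest on the spread between wells.

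The difference between the methods was tested itself on the 8 culture libraries of 36 cycles. It was -0.51 for Sp1 (SE 0.14, adjusted p = 0.0141 by edgeR), -2.28 for Sp2 (SE 0.38, adjusted p = 0.00154) and 0.26 for Sp3 (SE 0.09, adjusted p = 0.0449), and for Sp4 (-0.10, adjusted p = 0.506) and Sp5 (-0.24, adjusted p = 0.366) it did not pass. Of 13369 genes 6623 (49.5%) differed in this way, so 3 of 5 members is near the share among all genes. Each genotype in each method was 2 wells of 1 experiment, so these p-values rest on the spread between wells. Method, genotype and experiment cannot be told apart in this difference.

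**Figure D5:**
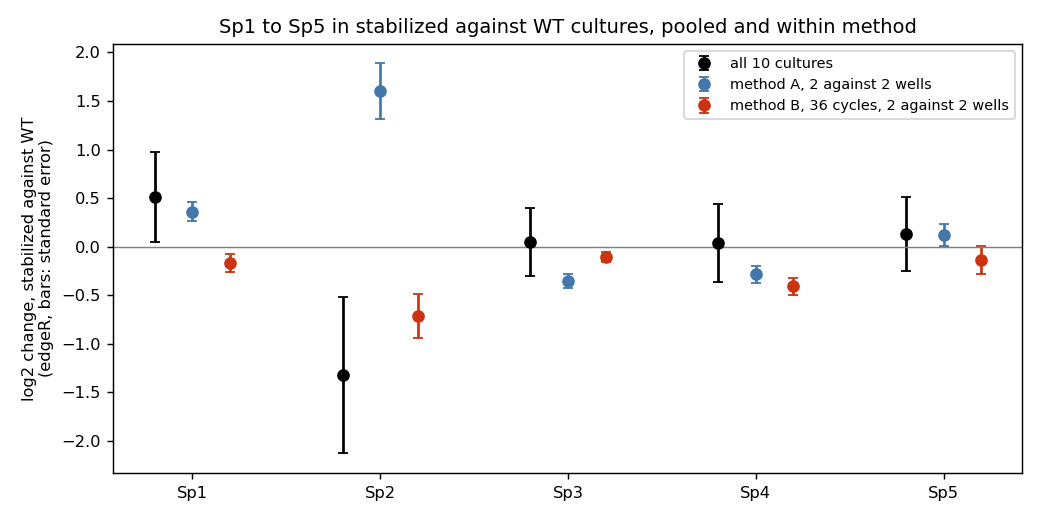
Log2 change of Sp1 to Sp5 in stabilized against WT cultures by edgeR, with standard errors, over all 10 cultures and within each method (2 against 2 wells). Sp2 changes sign between the methods (1.60 and -0.71), and Sp5 stays within 0.14 of 0 in all 3 fits.

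The share of the leading transcript was compared between stabilized and WT cultures, and for none of 4 genes did the difference pass an exact test. Sp1-201 held 98.7 ± 0.76% (SD, n = 4) and 99.5 ± 0.58% (SD, n = 6) of Sp1 counts, a difference of -0.81 percentage points (exact permutation test, two-sided, p = 0.105, adjusted p = 0.286 over 4 genes). Sp3-204 held 65.2 ± 7.2% and 71.6 ± 5.4% of Sp3 counts (exact permutation p = 0.143, adjusted p = 0.286). For Sp2-203 the shares were 100% and 65.9 ± 41.2% (exact permutation p = 0.333, adjusted p = 0.444), and for Sp4-201 they were 83.7 ± 7.4% and 86.0 ± 6.6% (exact permutation p = 0.686). The smallest p that 4 against 6 libraries allow is 0.00952. Taken as pairs of the same replicate number, the Sp1-201 share was lower in the stabilized library in 4 of 4 pairs, with a mean difference of -1.16 percentage points (exact permutation p = 0.125, the smallest that 4 pairs allow, adjusted p = 0.333), where pairs 3 and 4 differ in read length. The Sp3-204 share was lower in 3 of 4 pairs and the Sp4-201 share in 2 of 4. The labels do not name these wells as pairs.

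All 5 members had a peak of open chromatin near their start in every library, but at Sp4 and Sp5 it lay differently in cultures and acutely isolated ECs. ATAC-seq, which reads out open chromatin by transposase insertion, gave a called peak within 500 bases of the start of the leading transcript in all 10 libraries for each member (2 of acutely isolated ECs, 6 of WT and 2 of stabilized cultures), while 48.0% to 59.0% of 21948 gene starts had one, depending on the library. The highest fold enrichment at Sp1 was 10.4 and 9.34 in acutely isolated ECs, 9.84 to 11.9 in WT cultures and 10.6 and 10.6 in stabilized cultures. At Sp2 (10.2 to 14.5) and Sp3 (5.94 to 11.4) the groups overlapped as well, and at all 3 genes the highest peak covered the start itself, except at Sp1 in WT replicate 2, where it ended just before it.

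At Sp5 the highest peak within 500 bases had a fold enrichment of 10.0 and 8.64 in acutely isolated ECs and 8.43 to 10.1 in the 8 cultures, but it covered the start only in acutely isolated ECs. In cultures it ended upstream of the start, and a peak over the start itself was called in WT replicates 3 to 6, at 5.00, 5.16, 3.86 and 4.08, and not in WT replicates 1 and 2 or in either stabilized library. The peak of acutely isolated ECs covered both this upstream part and the start. Its fold enrichment is therefore not a value at the start and cannot be set against the culture peaks there. Sp5 RNA was lower in acutely isolated ECs than in every culture. At Sp4 the acutely isolated ECs had 1 peak, at 12.3 and 12.0, that covered the start and reached upstream. In each culture this region was called as separate peaks, upstream at 11.4 to 12.9 and over the start at 7.71 to 8.78. A called peak has 1 fold enrichment for its whole extent, so these values do not compare openness at the start itself. Of 12348 gene starts under a peak in any library, 10.6% had higher fold enrichment in both acutely isolated libraries than in all 8 cultures. For 8.24% it was lower in both, with a start without a peak taken as 0. Of the 5 members, 2 (Sp4 and Sp5) were among the higher and 0 among the lower, and these shares carry the same limit. These peak values were described and not tested, and the part of peak number, which differed between the libraries, was not tested either.

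The stretches just upstream of the starts are shown for Sp1, whose changes in counts and TPM differed, and for Sp4 and Sp5, whose peaks lay differently. The Sp1 and Sp4 stretches were fully under peaks in all 10 libraries. That of Sp5 was fully under the peak in both acutely isolated libraries and to 0% to 54.4% in the cultures. Its marked CTTTGAT was under a called peak in no culture. Where a culture had a peak over the Sp5 start, the motif lay between that peak and the upstream one. Peak calls do not measure openness at the motif itself, and how often other starts were split in this way was not tested. The stretches are read from RefSeq promoter windows on GRCm38.p6, 5′ to 3′ on the strand of the gene, for Sp1 at chr15:102406184-102406332 (plus), between the first exons of Sp1-206 and Sp1-202, for Sp4 at chr12:118301441-118301690 (minus) and for Sp5 at chr2:70474673-70474922 (plus). Capitals mark the GC box core GGGCGG, or its reverse complement CCGCCC, and the TCF/LEF motif CTTTGAT.
Sp1: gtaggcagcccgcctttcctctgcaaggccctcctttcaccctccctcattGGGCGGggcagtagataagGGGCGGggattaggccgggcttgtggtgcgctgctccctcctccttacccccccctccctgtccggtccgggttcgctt
Sp4: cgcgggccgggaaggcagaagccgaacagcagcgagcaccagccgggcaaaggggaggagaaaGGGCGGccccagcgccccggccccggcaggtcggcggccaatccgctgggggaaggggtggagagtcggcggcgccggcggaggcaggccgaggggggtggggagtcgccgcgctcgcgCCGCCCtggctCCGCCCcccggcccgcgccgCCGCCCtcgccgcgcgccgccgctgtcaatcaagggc
Sp5: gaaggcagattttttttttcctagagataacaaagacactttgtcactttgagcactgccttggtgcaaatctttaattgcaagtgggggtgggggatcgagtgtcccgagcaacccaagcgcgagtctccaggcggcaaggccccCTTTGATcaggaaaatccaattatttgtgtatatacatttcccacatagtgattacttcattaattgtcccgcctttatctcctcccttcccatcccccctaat
Searched on both strands in windows of 300 bases (250 before to 50 after a start), GGGCGG occurred in 35.7% of 32851 RefSeq promoters. The Sp1 window held 4 matches, and 5.49% of promoters held at least as many. A window of Sp3 and that of Sp4 held 5 each, and 2.71% of promoters held at least as many. The Sp5 window held none of these and 1 match of CTTTGAT, which 3.73% of promoters hold. CTTTGAA, found in 5.14% of promoters, was in none of the windows of the 5 members.

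Some regions near the members were called only in cultures. In an intron of Sp1, a peak at chr15:102420865-102421344, 14724 bases downstream of the start, was called in WT replicates 3 to 6 and both stabilized libraries, with a fold enrichment of up to 10.5, and in neither acutely isolated library. At Sp2 a peak at chr11:96966808-96967955, downstream of the start of Sp2-202, was called in all 8 cultures and in no acutely isolated library (fold enrichment up to 9.87). Inside Sp5 a peak at chr2:70475794-70476487 was called in 4 WT and both stabilized libraries and one at chr2:70476583-70476880 in 5 WT and both stabilized libraries, with fold enrichments of up to 4.55 and 4.32. The lists of acutely isolated ECs held 31844 and 37453 peaks and those of WT replicates 1 and 2 held 33152 and 50450, against 79160 to 98840 in the other cultures. WT replicates 1 and 2 were of method A and the other cultures of method B. The part of peak number, method and strain in these absences was not tested.

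Genes that work with the family were described from lists, whose members in the comparison of WT cultures with acutely isolated ECs are read against 23.7% of all genes called there (13.5% higher and 10.2% lower in cultures) and 45.2% with an adjusted p under 0.05 (23.9% higher and 21.3% lower). Of 14 SP1 coactivators and general factors, 3 fell in culture and none rose, with a median log2 change of -0.62 against 0.10 for all genes. The acetyltransferases Ep300 (-3.45, SE 0.52, adjusted p = 0.00113 by edgeR) and Crebbp (-2.64, SE 0.53, adjusted p = 0.00422) and the TFIID subunit Taf4 (-1.90, SE 0.49, adjusted p = 0.0125) fell. E2f1, a cell cycle factor that binds SP1, was at 4.19 (SE 1.12, adjusted p = 0.0146) but below the TPM minimum. The list had no call in the other comparisons, with medians of 0.64 for GFP-positive against GFP-negative cells (all genes -0.06) and 0.19 for stabilized against WT cultures (all genes -0.07).

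Of 10 measured SP1 modifying enzymes, 2 rose and 2 fell in culture, with a median of -0.29. The SUMO-directed ubiquitin ligase Rnf4 (1.36, SE 0.38, adjusted p = 0.0178 by edgeR) was among those that rose. The kinase Mapk3 (-1.47, SE 0.31, adjusted p = 0.00545) and the O-GlcNAc transferase Ogt (-1.08, SE 0.25, adjusted p = 0.00849) fell. Between GFP-positive and GFP-negative cells Mapk3 (1.39, adjusted p = 0.0229) and the SUMO protease Senp1 (1.84, adjusted p = 0.0270) were higher in ECs and none was lower, with a median of 0.53, and the casein kinase subunits Csnk2b (0.93, adjusted p = 0.318) and Csnk2a1 (0.63, adjusted p = 0.357) did not pass. None was called between stabilized and WT cultures, where the median was 0.01.

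Of 12 genes with known SP1 sites in their promoters, 2 rose and 2 fell in culture, with a median of 1.42. The VEGF receptor Kdr (-3.50, SE 0.47, adjusted p = 0.000675 by edgeR) and the growth factor receptor Igf1r (-3.86, SE 0.71, adjusted p = 0.00275) fell, while F3, the initiator of coagulation, was among those that rose (8.74, adjusted p = 0.00697). Tk1, an enzyme of thymidine salvage, was at 0.00574 TPM in acutely isolated ECs and 8.33 TPM in WT cultures (adjusted p = 0.0016), and Mmp14 was at 0.699 and 18.8 TPM (adjusted p = 0.00445), neither with 5 TPM in every culture. Between GFP-positive and GFP-negative cells 5 were higher and 4 lower (median 0.44), among them Nos3 (8.33, adjusted p = 0.00166), Eng (5.84, adjusted p = 0.00166), Igf1r (3.76, adjusted p = 0.00198) and Egfr (-5.75, adjusted p = 0.00176). None was called between stabilized and WT cultures (median -0.31).

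Of 6 Wnt partners of Sp5, 5 could be tested, and 3 fell in culture and none rose, with a median of -4.63. Axin2 (-8.29, SE 0.70, adjusted p = 9.75e-05 by edgeR) and the TCF/LEF factors Tcf7 (-5.99, SE 0.62, adjusted p = 0.000221) and Lef1 (-4.63, SE 0.61, adjusted p = 0.000649) fell, while Sp5 itself was higher in cultures. In GFP-positive against GFP-negative cells the same 3 were higher in ECs, Lef1 by 5.63 (adjusted p = 0.0027), Tcf7 by 4.01 (adjusted p = 0.0065) and Axin2 by 2.50 (adjusted p = 0.00893). None of the 5 was called between stabilized and WT cultures, with a median of 0.01.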

How the data were processed

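RNA-seq (14 libraries) and ATAC-seq (10 libraries) were analysed from deposited tables. Per the submitters' processing notes and the study's methods, the authors quantified RNA with Salmon 0.14.0 against GENCODE M21 transcripts (GRCm38/mm10), giving for each transcript and gene an estimated count (deposited as NumReads), an effective length and TPM. For ATAC-seq the authors aligned paired reads with HISAT2 2.1.0 and called peaks per library with MACS2 2.1.2. Those deposited lists give for each peak a fold enrichment, a −log10 p and q value and an integer score derived from q. Acutely isolated files count single reads and culture files count read pairs. Stranded counting is not given in the sources used here, so reads of overlapping antisense genes cannot be told apart. Library totals ran from 24284843 to 94686456, which limits precision for low genes such as Sp5 in sorted cells. Intervals of counting error were not computed.

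Estimated counts of 21847 protein-coding genes were rounded and tested with edgeR 4.0.16 (quasi-likelihood, TMM, R 4.3.3, limma 3.58.1), with p-values adjusted by Benjamini-Hochberg. This replaced the study's EBSeq test. Calls required an adjusted p under 0.05, a fold change over 2 and at least 5 TPM in every library of the higher group. DESeq2 1.42.0, other scalings, filters, a length offset, left-out libraries, a replicate block and fits within methods were alternatives. Shares of the leading transcript were compared by exact permutation over libraries (scipy 1.17.1). Likeness used log2(TPM + 1) of genes with a mean of at least 1 TPM. Peaks were kept at a fold enrichment over 2 and −log10 q over 2, and assigned within 500 bases of a start or 10000 bases of a gene. Sequences came from the GRCm38.p6 genome and RefSeq promoters of that build.

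Named transcripts held at least 5% of a gene's counts in a library. From each list up to 4 genes with the lowest adjusted p in a comparison were named, F3 was named after its values were seen, and some genes of the lists are not reported here by name. The 5 genes most like Sp1 and the 5 most like Sp5 were also named. The members and lists were chosen with earlier results of these data known. Replicate numbers of stabilized and WT cultures were used as a block, although the labels do not say that same-numbered wells are pairs. The deviations of same-numbered libraries from their group means correlated at 0.227, 0.271, 0.234 and 0.259. Same-numbered wells also shared the isolation method, so these correlations do not show a pairing. Numbers are those of the sample labels. Stabilized replicate 4 carries a molecule label of genomic DNA, and its title and protocol were followed. Samples labelled as cerebrum alone were not analysed here. In simulated counts 200 genes were changed by at least 4-fold, up or down. With a dispersion per gene, the tests recovered 15% (WT against acutely isolated, 13798 genes), 25.5% (GFP-positive against GFP-negative, 15116 genes) and 74% (stabilized against WT, 12971 genes). False calls numbered 4, 5 and 5 in the same order. With a common low dispersion, 99%, 99.5% and 100% were recovered.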

Additional observations from a re-analysis of the deposited data

Results flagged for a closer look

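The difference between stabilized and WT cultures itself differed between isolation methods for 3 members, by edgeR on the 36-cycle libraries. The method B minus method A log2 change was -0.51 for Sp1 (adjusted p = 0.0141), -2.28 for Sp2 (adjusted p = 0.00154) and 0.26 for Sp3 (adjusted p = 0.0449), where 6623 of 13369 genes differed. WT wells of method A held 13 and 38 counts of Sp2. Each arm of each method was 2 wells of 1 experiment, and experiment cannot be told apart from genotype.

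Sp5 in stabilized replicate 3, at 16.5 TPM, stood apart from the other stabilized libraries at 12.4 to 12.8 TPM. It was the only such library in 35 groups of values checked, and chance alone sets apart a library in about 1 in 20 groups.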

How the results depend on the processing

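The main limit is that WT cultures and acutely isolated ECs differ in read type. The gap between the Sp1 count and TPM changes was -4.45 to -2.70 with a library left out, and -0.39 both without Sp1-206 and without transcripts under 300 bases, the same setting for Sp1, chosen after seeing the data, as were its values against acutely isolated replicate 1 alone (-0.85) and replicate 2 alone (0.66). Genes called between WT cultures and acutely isolated ECs were 3276, against 5989 without a TPM minimum, 2104 with wells summed and 2422 to 3228 with a library left out. Between GFP-positive and GFP-negative cells they were 2394, against 1550 with a length offset, 4474 without a TPM minimum and 1767 to 2780 with a library left out, and 10 transcripts were called with no filter on low counts. Between stabilized and WT cultures 0 were called by edgeR, also with any library left out, against 18 by DESeq2. They were 190 with the replicate block, which used replicates 1 to 4 only. They were 76 with method as a term at 36 cycles, 813 in method A and 176 in method B. The cause of these shifts was not tested.

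Some signs turned. Between GFP-positive and GFP-negative cells, Sp4 was at -0.0187 under library size alone, and without acutely isolated replicate 1 Csnk2b and Csnk2a1 turned (left-out ranges -0.27 to 1.53 and -0.24 to 1.12). Between stabilized and WT cultures, Sp1 was at -0.17 in method B, and Sp2 was at 0.30 with method as a term and 1.60 in method A. Sp3 was at -0.0057 under library size alone, -0.24 with method as a term, -0.35 in method A, -0.11 in method B and -0.0901 to 0.26 with a library left out. Sp4 was at -0.35, -0.28 and -0.41 in the same 3 fits and at -0.14 to 0.20 with a library left out. Sp5 was at -0.22 with the length offset, -0.0149 with method as a term, -0.14 in method B and -0.15 to 0.39 with a library left out. The difference in the Sp1-201 share of counts was -1.13 to -0.55 percentage points with a library left out. That in the Sp4-201 share was 0.72 percentage points by TPM and -5.65 to 0.30 with a library left out.

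The median log2 change of all genes was 0.10 for WT cultures against acutely isolated ECs and 0.30 under library size alone, and it was -0.06 and -0.44 for ECs against GFP-negative cells. In those comparisons samples shared only a number (correlations of 0.005 and 0.06 for replicate 1). With the number as a block 3877 and 2069 genes were called in them, where the first fit kept only WT replicates 1 and 2, of method A. The Sp3 call between sorted ECs and GFP-negative cells was lost (adjusted p = 0.0602 by edgeR) and that of Sp1 was kept (adjusted p = 0.0339). The block changed no other call of a member.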
